A study of Mus musculus with 4 samples.

Results

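The transcripts of 10 genes of the YAP/TEAD pathway and of the fetal-like intestinal state were followed in control cells of a mouse colon tumour and in 3 mutant lines derived with ENU. The members were Yap1, Wwtr1, Tead1, Lats2, Amotl2, Ajuba, Ankrd1, Axl, Clu and Ly6a, 10 of the 41457 rows of the count table. They were chosen by symbol, with earlier results of these data known. The mutant lines M8, M32 and M83 carry the genotype label ENU mutant, and the remaining sample is labelled control. ENU (N-ethyl-N-nitrosourea) alkylates DNA and induces mostly point mutations, and which genes were hit in each line is not stated in the labels. All cells were grown in RPMI medium, and their poly(A) RNA was sequenced, with 1 column of counts a line (called a library here). The study speaks of triplicates, but no repeat had a column of its own, and neither the parent culture of each line nor its number of clones is given.

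YAP (Yap1) and TAZ (Wwtr1) are coactivators without a DNA-binding domain of their own, and TEAD proteins bring them to DNA. The Hippo kinase cascade, which ends in LATS kinases, phosphorylates YAP and TAZ and keeps them in the cytoplasm, so much of their regulation is not seen in their transcripts. In the intestine, YAP activity accompanies regeneration, in which epithelial cells take up a fetal-like state marked by Ly6a and Clu.

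The 4 libraries held between 25818148 counts (control) and 28879954 counts (M8). Levels are given as CPM, in which counts are divided by the library size, itself adjusted with TMM factors (trimmed mean of M-values). All 10 members passed the filter on low counts, as did 13576 genes of the whole table. Of the markers of colonic epithelium, Krt20 and Krt18 were expressed and the others had few or no counts. Krt20 had 116, 37.2 and 127 CPM in M8, M32 and M83, against 75.02 CPM in control, and Krt18 had 63.0, 36.6 and 31.5 CPM, against 27.8 CPM in control. Cdx2 and Epcam had 0 counts in every library, Cdh1 had at most 4 counts, and 3 of the 8 epithelial markers were tested. Krt8, which was tested as well, had 22, 0 and 5 counts in M8, M32 and M83 and 11 counts in control. Vil1 had at most 2 counts and Cldn7 at most 3. The mesenchymal markers summed to 8442, 9997 and 9266 CPM in M8, M32 and M83 and to 8140 CPM in control. Vim made up much of this sum, with 4362, 4789 and 5072 CPM in the lines and 4526 CPM in control. Thy1, another marker of that list, had 0 counts in every library. Leukocyte markers summed to 1.30, 1.62 and 1.52 CPM in M8, M32 and M83 and 2.00 CPM in control, and endothelial markers to less than 1 CPM in each library.

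Promoter windows are shown for Ankrd1, Amotl2, Ajuba and Lats2, because these genes are known targets or feedback members of the pathway and each was highest in M32. RefSeq windows (GRCm38.p6) of 250 bases before and 50 after a start site were found for 7 of the 10 members, with more than 1 window for Wwtr1 and Lats2. Tead1, Clu and Ly6a had no entry. Capitals mark CATTCC, the core of the TEAD motif, or its reverse complement GGAATG, and sequences are written 5′ to 3′ along the gene.
Ankrd1, chr19:36119795-36120094 (minus strand): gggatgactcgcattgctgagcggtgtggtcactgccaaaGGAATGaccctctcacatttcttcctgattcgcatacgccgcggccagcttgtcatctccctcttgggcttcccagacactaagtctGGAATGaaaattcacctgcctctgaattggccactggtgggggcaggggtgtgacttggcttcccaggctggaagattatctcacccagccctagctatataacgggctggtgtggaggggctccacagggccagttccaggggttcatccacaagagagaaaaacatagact
Amotl2, chr9:102717554-102717853 (plus strand): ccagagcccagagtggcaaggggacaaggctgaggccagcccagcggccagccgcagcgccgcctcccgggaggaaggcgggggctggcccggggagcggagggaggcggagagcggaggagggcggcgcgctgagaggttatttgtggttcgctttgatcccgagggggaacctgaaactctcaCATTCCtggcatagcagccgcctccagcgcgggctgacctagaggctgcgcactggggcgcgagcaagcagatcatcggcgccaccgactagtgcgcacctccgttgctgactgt
Ajuba, chr14:54577612-54577911 (minus strand): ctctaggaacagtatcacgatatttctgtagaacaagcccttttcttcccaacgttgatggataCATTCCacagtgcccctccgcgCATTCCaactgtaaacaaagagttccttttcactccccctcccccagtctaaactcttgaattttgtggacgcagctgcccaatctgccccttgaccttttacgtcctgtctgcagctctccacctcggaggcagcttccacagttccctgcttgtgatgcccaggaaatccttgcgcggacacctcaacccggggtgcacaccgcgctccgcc
Lats2, chr14:57746074-57746373 (minus strand): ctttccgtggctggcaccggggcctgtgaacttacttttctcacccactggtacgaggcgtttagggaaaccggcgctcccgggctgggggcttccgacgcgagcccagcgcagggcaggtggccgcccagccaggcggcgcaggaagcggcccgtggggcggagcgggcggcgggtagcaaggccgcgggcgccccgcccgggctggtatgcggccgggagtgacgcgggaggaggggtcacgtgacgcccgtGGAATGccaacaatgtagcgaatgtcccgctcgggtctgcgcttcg
Ankrd1 and Ajuba had 2 matches each, Amotl2 1 match 65 bases before the start site and Lats2 1 match at base 5 after it. The match was present in at least 1 window of all 7 members with an entry, against 16.6% of the 27025 genes in the table (14.7% of 32851 windows). Among the other YAP/TAZ targets that were listed, 3 of 11 genes with an entry held it, and among the listed genes of the Hippo cascade 5 of 17. The share was higher among the other listed TEAD and VGLL genes (4 of 6) and the Srf and actin cytoskeleton genes (3 of 7). Among the other listed fetal-like genes it was 3 of 14. The AP-1 motif TGANTCA, searched on both strands, was in the windows of 0 of the 7 members and of 8.97% of all genes. The interferon-stimulated response element, searched on both strands as a pair of GAAA repeats 2 bases apart, was found in the second Lats2 window and in no other member, against 3.99% of all genes. Neither of these motifs overlapped the TEAD matches shown. A match describes letters in a window and is not a measured binding site.

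**Figure D1:**
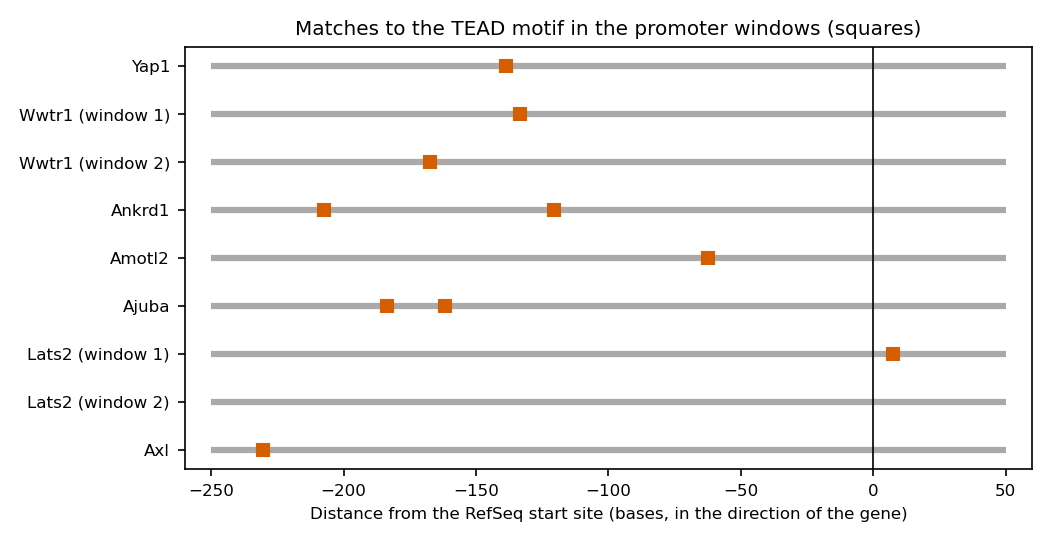
Position of TEAD motif matches (squares) in the 9 RefSeq promoter windows of 7 members, with the distance from the start site in bases on the horizontal axis. Matches lie between 233 bases before the start site (Axl) and base 5 after it (Lats2), the overlapping Wwtr1 windows share 1 match, and the second Lats2 window has none.

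Transcripts of the coactivators differed little between the mutant lines and control. Yap1 (ENSMUSG00000053110, chr9:7931999-8004596) had 137, 140 and 130 CPM in M8, M32 and M83, against 130 CPM in control. The lines overlapped control, with M83 just below it, and above it (ratio 1.04) when scaled by library size alone. The log2 difference between mutants and control was 0.058 (SE 0.21, edgeR quasi-likelihood adjusted p = 1). Wwtr1 (ENSMUSG00000027803, chr3:57455649-57575910) had 114, 97.3 and 103 CPM in M8, M32 and M83, against 111 CPM in control. M32 and M83 lay below control and M8 lay above it, and the log2 difference was -0.091 (SE 0.22, edgeR adjusted p = 1). Yap1 had the narrowest range of the 10 members over the 4 libraries, 0.11 on the log2 scale.

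Tead1, which encodes the DNA-binding partner, was higher in M32 than elsewhere. The gene (ENSMUSG00000055320, chr7:112679318-112906807) had 171, 253 and 181 CPM in M8, M32 and M83, against 166 CPM in control. All 3 lines lay above control, M8 by less than counting error (ratio 1.03, exact 95% interval 0.984 to 1.07) and M32 by a ratio of 1.52 (1.46 to 1.58). The log2 difference over the 3 lines was 0.28 (SE 0.29, edgeR adjusted p = 1), so the SE was as large as the difference. These intervals are Clopper-Pearson intervals of the ratio of 2 counts and cover counting error only. Among the other TEAD genes, Tead3 had 53.0, 77.2 and 72.4 CPM in M8, M32 and M83, against 48.0 CPM in control, and Tead4 had 42.0, 26.2 and 48.9 CPM, against 40.2 CPM in control. Tead4 was thus lowest in the library where Tead1 was highest. Tead2 stayed between 103 CPM (M83) and 121 CPM (M32), and Vgll4, a cofactor that competes with YAP for TEAD, between 18.7 CPM (M83) and 23.0 CPM (M32). Vgll1 and Vgll2 had 0 counts in every library. Per kilobase of exon, Tead2 had the highest level of the TEAD genes in every library, 25.2 CPM per kb in M32 and 23.4 in control, against 18.6 and 12.3 for Tead1.

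The members that restrain or scaffold the pathway were highest in M32. Lats2 (ENSMUSG00000021959, chr14:57689662-57758388) encodes a kinase that phosphorylates YAP and TAZ and is itself induced by them. It had 117, 176 and 128 CPM in M8, M32 and M83, against 94.8 CPM in control. All 3 lines lay above control, with ratios of 1.23 (exact 95% interval 1.17 to 1.30) in M8, 1.86 (1.77 to 1.96) in M32 and 1.35 (1.28 to 1.42) in M83. The log2 difference was 0.57 (SE 0.30, edgeR adjusted p = 1, unadjusted p = 0.103). In GENCODE vM21, 41.2% of the 50-base words of Lats2 also occur in Gm49361, an overlapping gene on the same strand, which had 0 counts in every library. How reads that match both genes were counted is not given, so the Lats2 counts are uncertain.

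Amotl2 (ENSMUSG00000032531, chr9:102716672-102733418) encodes an angiomotin-like scaffold that binds YAP and holds it at junctions. It had 158, 238 and 161 CPM in M8, M32 and M83, against 141 CPM in control. The lines lay above control, M32 by a ratio of 1.69 (exact 95% interval 1.62 to 1.76), and the log2 difference was 0.40 (SE 0.31, edgeR adjusted p = 1). Ajuba (ENSMUSG00000022178, chr14:54567472-54577558) encodes a LIM protein that binds LATS kinases and curbs them. It had 153, 179 and 132 CPM in M8, M32 and M83, against 139 CPM in control. M8 and M32 were above control and M83 slightly below it (edgeR log2 difference 0.16, SE 0.25, adjusted p = 1). Scaled by library size alone, M83 did not differ from control beyond counting error (ratio 0.994, 0.950 to 1.04).

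Ankrd1 and Axl, which are known as YAP/TAZ targets, differed in their order over the libraries. Ankrd1 (ENSMUSG00000024803, chr19:36111961-36120099), an ankyrin repeat protein gene of the mechanical response, had 53.8, 86.8 and 71.4 CPM in M8, M32 and M83, against 76.6 CPM in control. M8 was lowest, with a ratio to control of 0.702 (exact 95% interval 0.656 to 0.751), and M32 was highest, at 1.13 (1.07 to 1.20). Axl (ENSMUSG00000002602, chr7:25757273-25788705), which encodes a receptor tyrosine kinase, had 1211, 1103 and 1637 CPM in M8, M32 and M83, against 1205 CPM in control. M83 stood above the other libraries, with a ratio to control of 1.36 (1.34 to 1.38), while M32 was the lowest. The log2 differences were -0.12 (SE 0.30) for Ankrd1 and 0.13 (SE 0.27) for Axl, each with an edgeR adjusted p of 1. The Axl ligand gene Gas6 had 4, 2 and 1 counts in M8, M32 and M83 and 2 counts in control. Pros1, the gene of the ligand of the related receptors Tyro3 and Mertk, had 9.84, 8.59 and 10.1 CPM in the lines and 6.39 CPM in control. Axl had by far the highest level per length of the members, between 219 CPM per kb (M32) and 325 CPM per kb (M83), and Ajuba followed with 36.2 (M83) to 49.0 (M32).

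**Figure D2:**
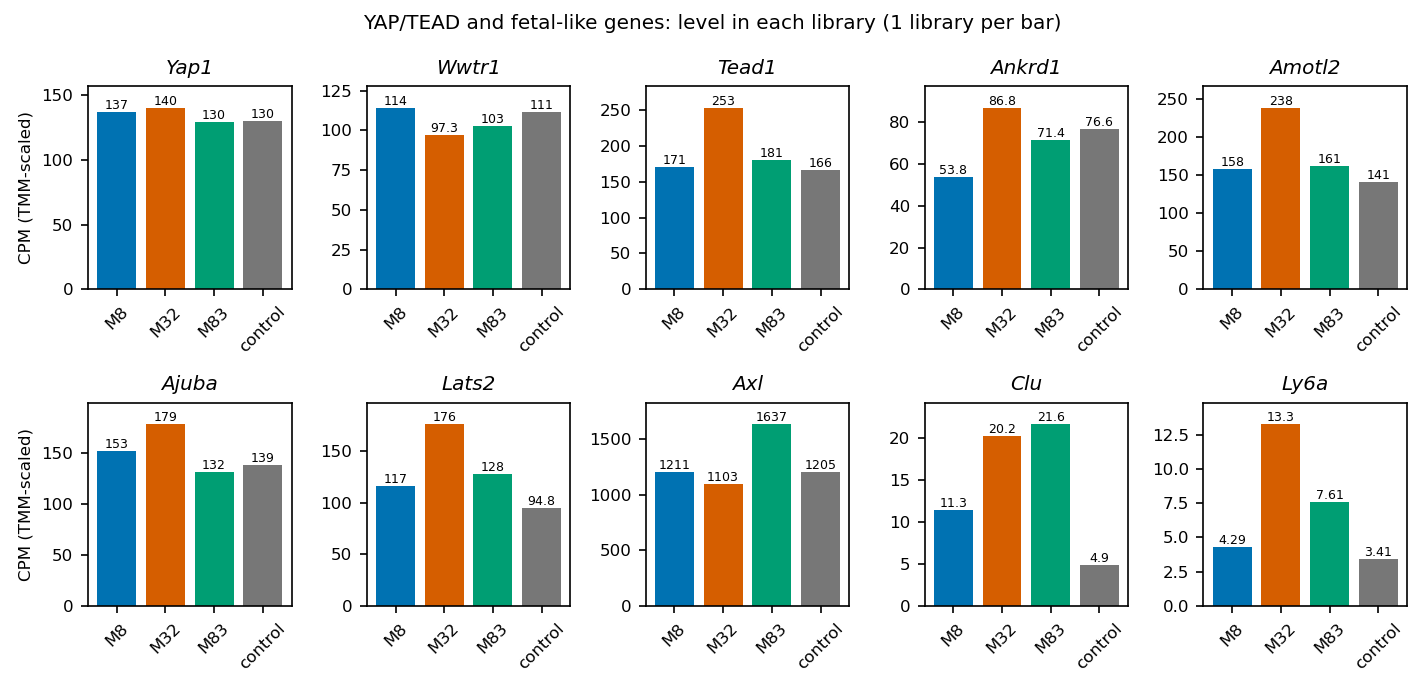
TMM-scaled CPM (vertical axes, each from 0) of the 10 members in M8, M32, M83 and control, with 1 library per bar. Clu has 11.3, 20.2 and 21.6 CPM in the lines and 4.90 in control, while Yap1 stays between 130 and 140 CPM in all 4 libraries.

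The fetal-like markers showed the widest differences of the 10 members. Clu (ENSMUSG00000022037, chr14:65968483-65981547), which encodes the secreted chaperone clusterin, had 323, 548 and 624 counts in M8, M32 and M83, against 125 counts in control. The lines averaged 17.7 ± 5.56 CPM (SD, n = 3), against 4.90 CPM in control, and none of them overlapped it. The ratios to control were 2.32 (exact 95% interval 1.88 to 2.87) in M8, 4.12 (3.39 to 5.05) in M32 and 4.40 (3.63 to 5.38) in M83. M32 and M83 did not differ beyond counting error (ratio of M83 over M32 1.07, 0.951 to 1.20), and both were higher than M8. The log2 difference was 1.85 (SE 0.47), with an unadjusted p of 0.00625 and an edgeR adjusted p of 1. DESeq2 called Clu with an adjusted p of 0.0353 (log2 difference 1.85, SE 0.46), while the edgeR alternatives gave adjusted p between 0.75 (without M8) and 1. The median log2 ratio of the 16 tested genes within 1 Mb of Clu lay between 0.079 (M83) and 0.22 (M32).

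Ly6a (ENSMUSG00000075602, chr15:74994877-74998031) encodes the surface antigen Sca-1. It had 122, 360 and 220 counts in M8, M32 and M83, against 87 counts in control. M32 was highest, with a ratio to control of 3.89 (exact 95% interval 3.07 to 4.98), followed by M83 at 2.23 (1.73 to 2.89). M8 was not separable from control by counting error, at 1.26 (0.947 to 1.67). The log2 difference was 1.30 (SE 0.67, edgeR adjusted p = 1). Without M32 it was 0.78 (SE 0.61, edgeR adjusted p = 1). Of the 50-base words of Ly6a, 19% occur in other genes, mostly Ly6c1 and Ly6i, so its counts are uncertain. Ly6c1 had 18, 98 and 5 counts in M8, M32 and M83 and 20 counts in control, so it too was highest in M32, and its part in the Ly6a values was not tested. Ly6i had 0 counts in each line and 2 counts in control. The median log2 ratio of the 22 tested genes within 1 Mb of Ly6a was 0.13, 0.25 and -0.15 in M8, M32 and M83. Over the 551 other tested genes of chr15 it was 0.20, 0.11 and -0.19. The part of this shift in the Ly6a values was not tested.

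Ly6a is also known as an interferon-induced gene. All 12 listed interferon-stimulated genes were lowest in M8, where 26.5% of all tested genes were lowest, with a median log2 ratio to control of -2.09 there, 0.30 in M32 and 0.71 in M83. Irf7, the regulator of the interferon response, had 1.09, 9.18 and 28.0 CPM in M8, M32 and M83, against 8.62 CPM in control. Ly6a was instead lowest in control, and of the 3 lines it was lowest in M8. It had 4.29, 13.3 and 7.61 CPM in M8, M32 and M83, against 3.41 CPM in control. It was highest in M32, while 10 of these 12 genes were highest in M83, against 28.4% of all tested genes. The part of interferon signalling in the Ly6a values was not tested.

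**Figure D3:**
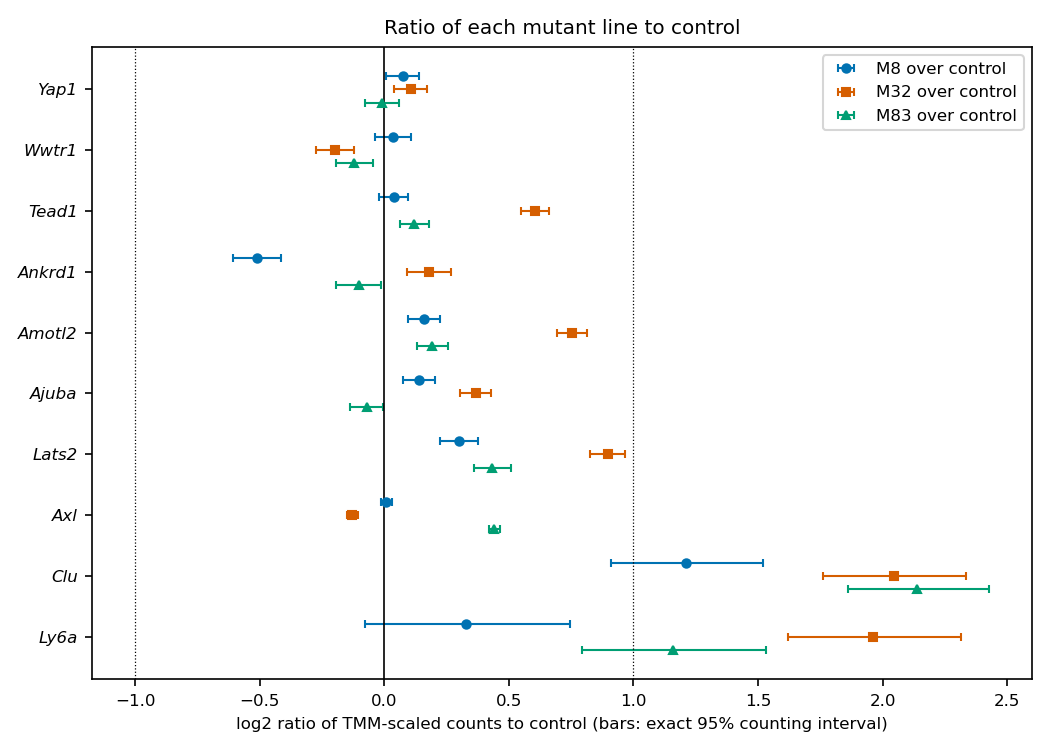
Log2 ratio of TMM-scaled counts of each mutant line to control (horizontal axis) for the 10 members, with exact 95% counting intervals as bars and dotted lines at 2-fold. Clu lies beyond 2-fold in all 3 lines and Ly6a in M32 and M83, while the other 8 members lie within 2-fold of control.

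Set against all genes, the members were described by counts. They were chosen with earlier results of these data known, so the counts are descriptions and not independent evidence of an excess. None of the 10 was called in edgeR at an adjusted p under 0.05, where 0.00737% of all tested genes were called, and only Clu had an unadjusted p under 0.05, as did 3.3% of tested genes. In DESeq2, 1 of the 10 was called, against 0.189% of the 19529 genes it tested, and 2 had an unadjusted p under 0.05, as did 2.62% of the 21249 genes with a p. Tead1, Amotl2, Lats2, Clu and Ly6a, 5 of 10, lay above control in every line, as did 23.3% of all tested genes. None lay below control in every line, against 21.3% of all tested genes. The median log2 difference of the members was 0.22, against 0.024 over all tested genes. By the rule of size (at least 2-fold, at least 50 counts in the higher library, counting interval clear of 1), 1 member was higher in M8, where 2.97% of tested genes were. The rule gave 2 members higher in M32, against 3.88% of tested genes, and 2 in M83, against 4.17%. No member was lower by this rule in M8, M32 or M83, where 1.64%, 0.913% and 1.02% of tested genes were. These 3 comparisons share the control library, so their counts are not independent.

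M32 held the highest level of 7 of the 10 members, Yap1, Tead1, Ankrd1, Amotl2, Ajuba, Lats2 and Ly6a, where it was the highest library for 23.1% of all tested genes. M32 was singled out after the values were seen, so this count is a description. For Yap1 the lead over M8 was within counting error (ratio of M32 over M8 1.02, 0.977 to 1.07). The ratio of M32 over M8 was 1.48 for Tead1, 1.51 for Amotl2, 1.51 for Lats2 and 1.61 for Ankrd1, and each counting interval left out 1. Without M32, the log2 differences from control in edgeR were 0.053 for Tead1, 0.15 for Amotl2, 0.012 for Ajuba and 0.34 for Lats2. Wwtr1 was lowest in M32 instead, and so was Axl. The mesenchymal markers were also high in M32, highest there in 5 of 6 tested genes, while Vim was highest in M83. Pdgfrb had 43.9, 86.3 and 19.9 CPM in M8, M32 and M83 and 16.6 CPM in control. The part of these markers in the values of the members was not tested. In bulk libraries, fewer cells with a transcript and less transcript per cell cannot be told apart.

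The other listed YAP/TAZ targets followed the M32 order in part. Of 18 genes, 13 were tested, and 9 of these were highest in M32, against 23.1% of all tested genes. None was called in edgeR. In every line, 6 genes exceeded control and 2 fell short of it, against 23.3% and 21.3% of all tested genes. The median log2 difference was 0.24 (median log2 ratio 0.080, 0.49 and 0.11 in M8, M32 and M83). Ctgf, a matricellular gene widely used as a readout of YAP activity, had 55.5, 131 and 87.5 CPM in M8, M32 and M83, against 57.1 CPM in control. Cyr61, of the same family, had 330, 478 and 422 CPM in the lines, all below the 586 CPM of control (log2 difference -0.51, SE 0.26, edgeR adjusted p = 1). These classical readouts thus lay on opposite sides of control in M32 and M83. Ccdc80 had 21.6, 54.4 and 26.5 CPM in the lines, against 8.11 CPM in control (log2 difference 2.07, SE 0.59, edgeR adjusted p = 1). Crim1 had 205, 314 and 283 CPM in the lines and 169 CPM in control. Igfbp3, Nt5e, Rbms3, Fjx1 and Foxf2 did not pass the filter on low counts.

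Among the other fetal-like genes, M83 was the highest library more often than M32. Of 21 genes 17 were tested, and 9 of them were highest in M83, against 28.4% of all tested genes, and 3 in M32. None was called in edgeR, and the median log2 difference was 0.21. Control was exceeded in all 3 lines at once by 6 genes, and 2 fell short of it in all 3, against 23.3% and 21.3% of all tested genes. M8, M32 and M83 had median log2 ratios to control of 0.12, -0.13 and 0.18. Of the 17, 8 were lowest in M32, as were 3062 of all 13576 tested genes. By the rule of size, 1, 3 and 2 were higher in M8, M32 and M83, against 2.97%, 3.88% and 4.17% of all tested genes. By the same rule 0, 1 and 1 were lower, against 1.64%, 0.913% and 1.02%. Anxa8, an annexin gene, had 60.1, 79.9 and 158 CPM in M8, M32 and M83, against 22.7 CPM in control (log2 difference 2.13, SE 0.59, edgeR adjusted p = 1). Msln, the mesothelin gene, had 200.4, 172 and 366 CPM in the lines and 142 CPM in control. Spp1, the osteopontin gene, was low in M32 and M83, with 587, 215 and 293 CPM in the lines against 603 CPM in control. Of the crypt stem cell genes, Lgr5 had 1 count in M8 and 0 counts in M32, M83 and control, and Olfm4 had 0 counts in every library.

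The genes of the Hippo cascade showed no common direction. Of 21 genes 19 were tested, with a median log2 difference of -0.022 and none called in edgeR. Of these, 4 exceeded control in all 3 lines at once and 2 fell short of it in all 3, against 23.3% and 21.3% of all tested genes. Fat1, an atypical cadherin gene upstream of the cascade, had 686, 839 and 915 CPM in M8, M32 and M83, against 554 CPM in control (log2 difference 0.55, SE 0.25, edgeR adjusted p = 1). Sav1, the scaffold of the MST kinases, was low in M8, with 50.1, 87.2 and 84.5 CPM in the lines and 91.5 CPM in control. Amot, a relative of Amotl2, had 29.1, 53.1 and 38.1 CPM in the lines and 29.3 CPM in control, and was thus highest in M32 as well. Lats1, the partner kinase of Lats2, had log2 ratios of -0.20, 0.020 and -0.18 in M8, M32 and M83. Srf, its cofactors and actin cytoskeleton genes share mechanical input with YAP. Of the 7 tested, 5 were highest in M32, against 23.1% of all tested genes. Acta2 in that list had 199, 474 and 53 counts in M8, M32 and M83 and 6 counts in control.

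**Figure D4:**
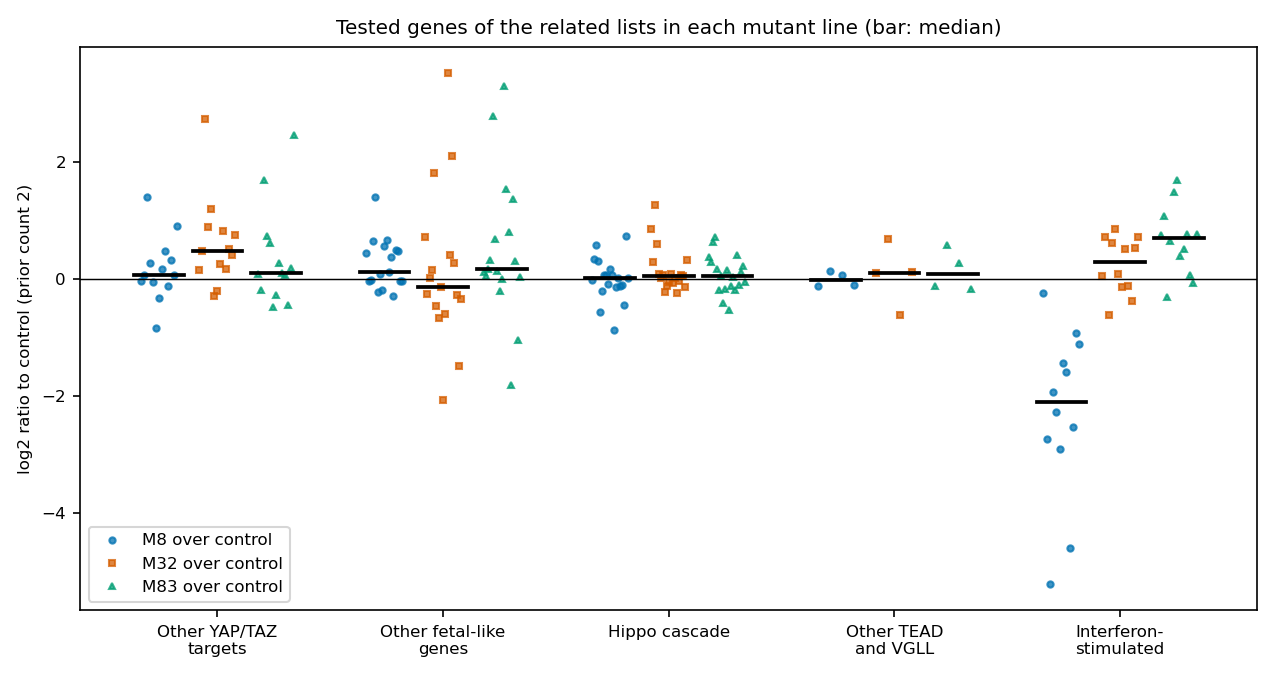
Log2 ratio to control (vertical axis, prior count 2) of the tested genes of 5 lists in M8, M32 and M83, with 1 point per gene and a bar at the median. The other YAP/TAZ targets have their highest median in M32 (0.49), the Hippo cascade stays near 0 in each line, and the interferon-stimulated genes are low in M8 (median -2.09).

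Clu and Ly6a were the members that spanned at least 1 on the log2 scale over the 4 libraries, as 27.8% of tested genes did. The genes most like Clu, by Euclidean distance between log2 CPM centred over the 4 libraries and among 9683 genes, were Cdsn (distance 0.26) and Gm2a (0.34). Cdsn, the corneodesmosin gene, had 301, 542 and 712 counts in M8, M32 and M83 and 143 counts in control. The genes most like Ly6a were Atoh8 (0.31) and Arhgap29 (0.39). Atoh8, a transcription factor gene, had 172, 487 and 344 counts in the lines and 156 counts in control, and Arhgap29 had 451, 1272 and 1042 counts in the lines and 414 counts in control. With 4 libraries, many genes can share an order, so this likeness is a description.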

How the data were processed

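RNA was extracted with RNeasy Micro columns, and libraries were made with NEBNext kits, per the labels' protocols. The authors deposited raw counts per gene without normalisation, on build GRCm38 per the submitters' processing notes. The sources used here do not give the aligner, counting tool, annotation or strand setting. If strand was not used, reads of genes overlapping on opposite strands cannot be told apart. GENCODE vM21 (GRCm38) gave positions and exonic lengths. Members and gene lists were chosen with earlier results of these data known.

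The labels give the 3 lines 1 genotype, so ENU mutants were set against control with edgeR 4.0.16 (R 4.3.3, TMM, filterByExpr, quasi-likelihood test, Benjamini-Hochberg over 13576 genes, 2 residual degrees of freedom). The p-values and SEs rest on the spread among the lines, which edgeR moderates with the spread of all tested genes. They assume that the single control varies as the lines do. SE is the log2 difference over the root of F. Single lines were compared by size without a test (prior count 2). DESeq2 1.42.0, other scalings, no filter and leaving out each line were alternatives, all set at the start. Counts of genes highest or lowest in 1 library, and their scalings, were added after the values were seen. Fits and intervals were checked on simulated data. There the control varied as the lines did, and the interval check held counting error alone, so these assumptions were not tested. All members, up to 4 genes per list (mean CPM of at least 5, largest log2 differences) and the 2 genes most like a member were named by rule. Lats1, Gas6, Ly6c1, Ly6i, Lgr5, Olfm4, Vgll1, Vgll2, Cdh1, Cdx2, Epcam, Krt8, Vim and the genes below the filter were added after their values were seen. A count of 0 allows up to 3 counts (0.104 CPM in M83, 0.118 CPM in control). Without molecular identifiers, floors and intervals reflect counting error alone.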

Additional observations from a re-analysis of the deposited data

Results flagged for a closer look

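Ankrd1, Ajuba and Axl lay on opposite sides of control in different mutant lines, with counting intervals clear of control on each side under TMM scaling. Ankrd1 had a log2 ratio of -0.51 in M8 and 0.18 in M32. Ajuba had -0.071 in M83 and 0.37 in M32, and scaled by library size alone its ratio in M83 was 0.994 with an interval that includes 1 (0.950 to 1.04). Axl had -0.13 in M32 and 0.44 in M83. With 1 library a line the difference between lines was not tested, and counting intervals leave out the spread between cultures.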

How the results depend on the processing

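The count of genes called in edgeR was 1 and became 2 without the filter on low counts and 37 with DESeq2. Leaving out each line gave 1 each time. The count of members called was 0, and 1 (Clu) with DESeq2. Under the stricter 4-fold rule, 0 members in place of 1 were higher in M8, 1 in place of 2 in M32 and 1 in place of 2 in M83. Members above control in every line numbered 5, 6 when scaled by library size alone, and 5 to 7 with a line left out. Members below control in every line numbered 0, and 0 to 1 with a line left out, where Wwtr1 joined without M8 and Ankrd1 without M32. Neither count could fall with a line left out, as only the remaining lines had to lie on that side of control. Of 70 alternative values of single members, 68 kept their sign. With a line left out, the log2 difference of Ankrd1 ranged from -0.32 to 0.045 (positive without M8) and that of Axl from -0.074 (without M83) to 0.22, and the cause was not tested. The count of members highest in M32 was 7 under each scaling. The median log2 difference of all genes moved by -0.0034 with DESeq2 size factors and by 0.022 with library size alone. No paired analysis was possible because there was 1 control library and the labels pair it with no line. Replicate numbers were given in accession order and carry no pairing.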
